A study of Mus with 96 samples.

Results

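The comparison described here set 4 livers of mice lacking Bmal1 in hepatocytes (Hep-Bmal1KO) against 4 livers of control mice (Hep-Bmal1WT) that were fed a high-fat diet low in choline (cdHFD), all taken at zeitgeber time 22 (ZT22), late in the dark phase. The 8 libraries were chosen by their titles, out of 96 in the series and 48 on cdHFD. Hep-Bmal1KO mice carried 1 copy of an Alb-Cre transgene and floxed alleles of Bmal1 (gene symbol Arntl) on both chromosomes, and Hep-Bmal1WT mice were their floxed littermates without Cre, so both groups carried the floxed allele. All were C57BL/6J mice aged 8 to 10 weeks, housed in 12 h of light and 12 h of dark, with 2 males and 2 females in each group. The diet, given for 2 weeks, held 60% fat, 2% cholesterol, 9% protein, 31% carbohydrate and 0.17% methionine. The albumin promoter drives Cre in hepatocytes, so the other cells of the liver keep an intact Bmal1 gene and contribute to RNA from whole tissue. The series sampled livers every 4 h from ZT2 on this diet and on normal chow, and the questions here are which genes differed between the genotypes at ZT22, and which of those did not differ 12 h away, at ZT10 in the light phase.

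BMAL1 pairs with CLOCK or NPAS2 to switch on genes with E-box elements, among them the Per and Cry genes, whose proteins shut the pair down, and the Rev-erb genes Nr1d1 and Nr1d2, whose proteins repress Arntl in turn. The PAR bZIP factors Dbp, Tef and Hlf pass this rhythm on to genes of drug, lipid and hormone metabolism. In mice, which are active in the dark, the end of the night closes the feeding period, and clock genes such as Arntl are high while the Per and Rev-erb transcripts are low. Choline is needed to make phosphatidylcholine for the export of lipid from the liver, so a diet without it leads to steatosis and injury.

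RNA was measured by BRB-seq, a bulk method that reads the 3′ end of transcripts. The ZT22 libraries held 5414382 to 7341286 counts on genes in Hep-Bmal1WT and 4243905 to 8664926 in Hep-Bmal1KO, within the range of the series (1861740 to 9718615). Hep-Bmal1WT libraries of cdHFD mice sat in columns 4 to 6 of the library plate and Hep-Bmal1KO libraries in columns 10 to 12, with 0 columns holding both, so column and genotype cannot be told apart. The genotype labels were checked with a scale for each diet and time that runs from 0 at the Hep-Bmal1WT median to 1 at the Hep-Bmal1KO median, the library itself left out, over 18 clock genes and over 20 further genes with the smallest genotype p at the other times. At ZT22, Hep-Bmal1KO replicate 4 lay nearer to the other label on both scales (0.35 and 0.43), while the other 3 lay at 0.80 to 1.37, and its Arntl level of 11.6 CPM (counts after scaling by library depth) was below all 4 Hep-Bmal1WT livers. Among the Hep-Bmal1WT livers at ZT22, replicates 2 and 3 lay at 0.55 and 0.80 on the clock genes, and all 4 lay between -0.15 and 0.25 on the 20 further genes. At ZT10, Hep-Bmal1WT replicate 3 lay beyond the Hep-Bmal1KO side on both (1.47 and 1.26), and Hep-Bmal1KO replicate 4, a female by its label, held 4 counts of Xist and 6 of the Y-linked genes, against 344 to 595 and 1 to 10 in the other females and 0 to 8 and 436 to 1180 in the males. All libraries stayed in the main comparison, and values without these 3 are given beside many of the results. At ZT14, Hep-Bmal1WT replicate 1 (0.86 and 1.09) and Hep-Bmal1KO replicate 1 (0.07 and -0.23) also lay nearer to the other label on both scales. These ZT14 libraries are part of the shared fit, and counts without all 4 cdHFD libraries against their label are given below.

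Arntl itself was lower in Hep-Bmal1KO livers at ZT22 (chr7:113178471-113314126 in mm10). It measured 24.1, 22.0, 26.7 and 27.6 CPM in Hep-Bmal1WT and 8.61, 7.45, 8.93 and 11.6 CPM in Hep-Bmal1KO, so the groups did not overlap. The log2 fold change was -1.44 (SE 0.31), a 2.72-fold lower level, with an adjusted P of 0.028 by the quasi-likelihood test of edgeR, adjusted over all genes after Benjamini and Hochberg. Since the floxed exon lies inside the gene and the reads come from its 3′ end, this level does not check the deletion, and a loss of transcript in hepatocytes cannot be told apart from a change in the share of hepatocytes, here or for other genes in whole liver. At ZT10, when Arntl is normally low, the levels were 3.08, 3.51, 8.07 and 2.70 CPM in Hep-Bmal1WT and 2.52, 2.21, 3.10 and 3.76 CPM in Hep-Bmal1KO, with a log2 fold change of -0.58 (95% interval -1.36 to 0.19). The highest of these 8 values was in the Hep-Bmal1WT replicate 3 library. Within Hep-Bmal1WT, Arntl was 5.76-fold higher at ZT22 than at ZT10, and within Hep-Bmal1KO 3.17-fold higher. With all libraries the genotype effects at both times did not differ beyond their error (log2 difference -0.86, SE 0.50). That result depended on Hep-Bmal1WT replicate 3, without which the log2 fold change at ZT10 was -0.10 (SE 0.41). The difference was then -1.35 (SE 0.51), with an unadjusted P of 0.011 and an adjusted P of 0.80 by the same test.

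The other 17 clock genes measured did not pass the adjusted test at ZT22. Among the activators, Clock (log2 fold change 0.00, SE 0.18) and Npas2 (0.26, SE 0.58) had values close to equal. Cry2, a repressor of the CLOCK-BMAL1 pair, measured 10.7, 8.31, 10.5 and 12.6 CPM in Hep-Bmal1WT and 18.1, 16.005, 17.7 and 14.6 CPM in Hep-Bmal1KO. All 4 Hep-Bmal1KO values were above all 4 Hep-Bmal1WT values, yet the log2 fold change of 0.65 (SE 0.20) had an adjusted P of 0.15. Tef, a PAR bZIP activator, also had groups that did not overlap (0.63, SE 0.24, adjusted P = 0.26). At ZT10 the log2 fold changes of Cry2 and Tef were -0.22 and -0.17, and the unadjusted P of the difference between times was 0.0032 for Cry2 and 0.015 for Tef, which left adjusted values of 0.81 and 0.90. The Rev-erb gene Nr1d1 (log2 fold change -0.07), the E-box target Dbp (0.03) and Per2 (-0.23) were low in both genotypes, with 1.52 to 4.06, 6.78 to 11.7 and 2.90 to 9.53 CPM over the 8 livers. Bhlhe40, a further repressor, was at -0.57 (SE 0.21, adjusted P = 0.26), with overlapping groups. Of the 16 genes listed as outputs of the clock, none passed the adjusted test, against 0.199% of all genes. At an unadjusted P under 0.05, 3 were lower, against 5.85% of all genes. They were led by Nampt, the rate-limiting enzyme of NAD salvage (-0.38, SE 0.16). At ZT10, 5 were lower and 1 higher, against 5.4% and 6.03% of all genes. Without Hep-Bmal1WT replicate 3 and Hep-Bmal1KO replicate 4 at ZT10, 8 were lower and 1 higher, and 3 of the lower passed the adjusted test. The shares over all genes, in either direction, were then 16.5% and 3.26%.

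**Figure D1:**
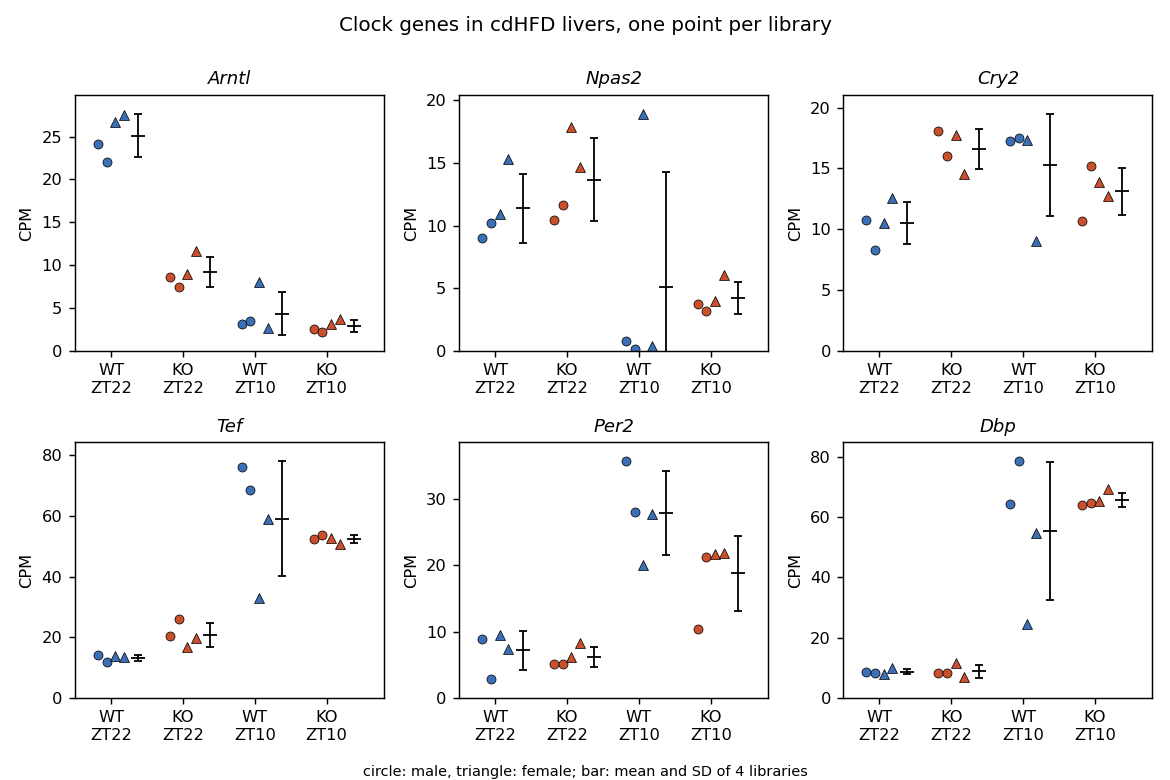
CPM of 6 clock genes (vertical axes, linear from 0) in the 4 Hep-Bmal1WT (blue) and 4 Hep-Bmal1KO (red) cdHFD livers at ZT22 and at ZT10. Circles are males, triangles females and bars the mean and SD of 4 libraries, drawn no lower than 0. Arntl is lower in all Hep-Bmal1KO livers at ZT22, and at ZT10 the Hep-Bmal1WT replicate 3 library stands apart with 18.9 CPM of Npas2 against 0.175 to 0.770 in the other 3.

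Over the whole transcriptome, 31 of 15548 genes tested differed at ZT22 (adjusted P under 0.05, 0.199%), 14 higher (0.09%) and 17 lower (0.109%) in Hep-Bmal1KO. At an unadjusted P under 0.05 there were 909 higher (5.85%) and 910 lower (5.85%). The fold change was at least 2-fold for 20 of the 31, 11 higher and 9 lower, and the median log2 fold change was 1.35 for the higher and -1.04 for the lower genes, against 0.02 over all genes tested. The libraries of both genotypes did not overlap for 13 of the 14 higher and 17 of the 17 lower genes, which the choice by P favours, and for 7.45% of all genes (3.61% above and 3.83% below the controls). Of all genes, 52% had a log2 fold change above 0. The number of calls moved with single libraries. Without Hep-Bmal1KO replicate 4 there were 33 higher and 62 lower genes (0.611% in all), and 28 of the 31 remained. Without Hep-Bmal1WT replicate 1, 2, 3 or 4 the counts of higher and lower genes were 2 and 4, 0 and 2, 1 and 2, and 6 and 4, and without Hep-Bmal1KO replicate 1, 2 or 3 they were 4 and 4, 0 and 1, and 7 and 7. All 31 genes kept their direction under each alternative processing tried (588 values).

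Several of the 17 lower genes act in lipid and hormone handling. G0s2, which encodes an inhibitor of the triglyceride lipase ATGL (chr1:193272160-193273188), measured 296, 222, 594 and 361 CPM in Hep-Bmal1WT and 78.7, 80.2, 123 and 159 CPM in Hep-Bmal1KO. Even the lowest control liver was above all Hep-Bmal1KO livers, and G0s2 fell by 1.74 on the log2 scale (SE 0.32, 3.34-fold, adjusted P = 0.0088). Dio1, the deiodinase that turns thyroxine into active thyroid hormone (chr4:107291465-107307168), had 164, 184, 224 and 196 CPM against 30.8, 48.7, 81.001 and 77.8 CPM. The groups were again apart, with a log2 fold change of -1.69 (SE 0.32, adjusted P = 0.013). Smaller decreases were found for 2 genes of glycerolipid synthesis, Chpt1, which makes phosphatidylcholine from CDP-choline (-0.84, SE 0.17, adjusted P = 0.025), and Agpat2, which acylates lysophosphatidic acid (-0.57, SE 0.13, adjusted P = 0.041). Ephx2, the soluble epoxide hydrolase that breaks down epoxides of fatty acids, fell by 0.64 on the log2 scale (SE 0.15).

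Stress proteins and enzymes of foreign compounds made up a further group. Hspb1, a small heat shock protein (chr5:135887919-135889563), had the smallest P of all genes, with 286, 180.4, 170.4 and 284 CPM in Hep-Bmal1WT and 81.7, 76.7, 59.5 and 78.9 CPM in Hep-Bmal1KO. The decrease was 3.10-fold (log2 fold change -1.63, SE 0.26, adjusted P = 0.0015). Fkbp4, a co-chaperone of HSP90, fell by 0.68 (SE 0.15). Cyp2a5, a cytochrome P450 that hydroxylates coumarin and nicotine (chr7:26835339-26843264), showed the largest decrease by fold, from 336, 256, 243 and 318 CPM to 19.5, 33.98, 20.5 and 70.5 CPM. Its highest Hep-Bmal1KO value came from replicate 4, and the log2 fold change was -2.99 (SE 0.68, adjusted P = 0.038), or -3.57 without that library. Cyp2a5 has a near-identical neighbour, Cyp2a4, with which reads may be shared, so the split between these genes is uncertain. Ces1b, a carboxylesterase from a cluster of similar genes, had 64.96, 63.4, 69.9 and 71.1 CPM against 21.0, 26.5, 32.7 and 36.9 CPM (-1.20, SE 0.26, adjusted P = 0.028), with the same limit. Ggt6, of the gamma-glutamyltransferase family, fell by 0.97 (SE 0.20, adjusted P = 0.027).

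The remaining lower genes had varied roles. Gbp3, a GTPase induced by interferon, measured 18.2, 19.3, 17.7 and 16.7 CPM in Hep-Bmal1WT and 6.43, 6.14, 8.69 and 9.53 CPM in Hep-Bmal1KO, a log2 fold change of -1.21 (SE 0.25, adjusted P = 0.026). AW112010, a transcript that is also induced by inflammatory signals, was at 590.4, 398, 559 and 497 CPM against 212, 125, 265 and 368 CPM (-1.07, SE 0.25, adjusted P = 0.040). Neither gene's groups overlapped. Hjv, the hemojuvelin co-receptor that sets hepcidin levels (-0.63, SE 0.14, adjusted P = 0.036, or 0.057 without Hep-Bmal1KO replicate 4), the histone gene H2bc4 (-0.64, SE 0.13), Fez2 (-0.51, SE 0.11) and the zinc finger gene Zfp938 (-1.04, SE 0.24) completed the 17.

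Among the 14 higher genes, 3 act in the uptake or export of metabolites. Lpl, the lipoprotein lipase that is low in healthy adult hepatocytes (chr8:68880555-68906932), rose from 169, 208, 223 and 237 CPM to 435, 462, 506 and 499.9 CPM. All 4 Hep-Bmal1KO livers lay close together and far above the controls, a 2.27-fold difference (log2 fold change 1.18, SE 0.25, adjusted P = 0.027). Slc13a5, the citrate importer of the hepatocyte membrane (chr11:72241990-72267295), measured 0.575, 0.773, 1.80 and 4.65 CPM in Hep-Bmal1WT and 11.5, 14.0, 9.17 and 3.10 CPM in Hep-Bmal1KO. It was the only called gene whose groups overlapped, through Hep-Bmal1KO replicate 4 and Hep-Bmal1WT replicate 4. Its log2 fold change was 2.19 (SE 0.46, adjusted P = 0.027), and 2.49 without Hep-Bmal1KO replicate 4. Abcg8, one subunit of the sterol exporter to bile, was at 20.7, 25.7, 20.03 and 22.6 CPM against 38.7, 75.4, 29.3 and 71.1 CPM (1.26, SE 0.28, adjusted P = 0.035, or 0.064 without Hep-Bmal1KO replicate 4). Its partner subunit Abcg5 did not pass the test (0.90, SE 0.27, adjusted P = 0.15), with groups that did not overlap.

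The other higher genes included signalling, nuclear and membrane proteins. Hebp2, a heme-binding protein (chr10:18540123-18546076), had the largest increase, from 0.958, 1.35, 1.10 and 0.465 CPM to 8.72, 12.7, 12.9 and 6.55 CPM (3.38, SE 0.73, adjusted P = 0.028). Its control values rest on few counts, so the size of its increase is uncertain. Maoa, a mitochondrial monoamine oxidase (chrX:16619698-16687812), measured 10.5, 10.2, 8.15 and 5.58 CPM against 12.7, 11.8, 22.1 and 18.6 CPM, with a log2 fold change of 0.94 (SE 0.21, adjusted P = 0.038, or 0.057 without Hep-Bmal1KO replicate 4). The difference lay mostly in females (22.1 and 18.6 against 8.15 and 5.58 CPM) and was small in males (12.7 and 11.8 against 10.5 and 10.2 CPM). All 4 Hep-Bmal1KO livers were above the controls. Over 19 alternatives the log2 fold change of Maoa ran from 0.25 to 1.56, and 7 passed the adjusted test. Gas7, an actin-binding protein, rose by 1.67 (SE 0.31, adjusted P = 0.0088), the cell-cycle kinase Cdk6 by 0.51 (SE 0.11) and the DNA damage kinase Atr by 0.86 (SE 0.19). Tinag, a protein of basement membranes (2.27, SE 0.53), Sfxn3, a sideroflexin of the mitochondrial membrane (1.33, SE 0.28), the phospholipid flippase Atp11a (1.37, SE 0.31), the orphan receptor Gpr157 (1.38, SE 0.32) and Msantd3 (2.59, SE 0.59) were also higher.

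**Figure D2:**
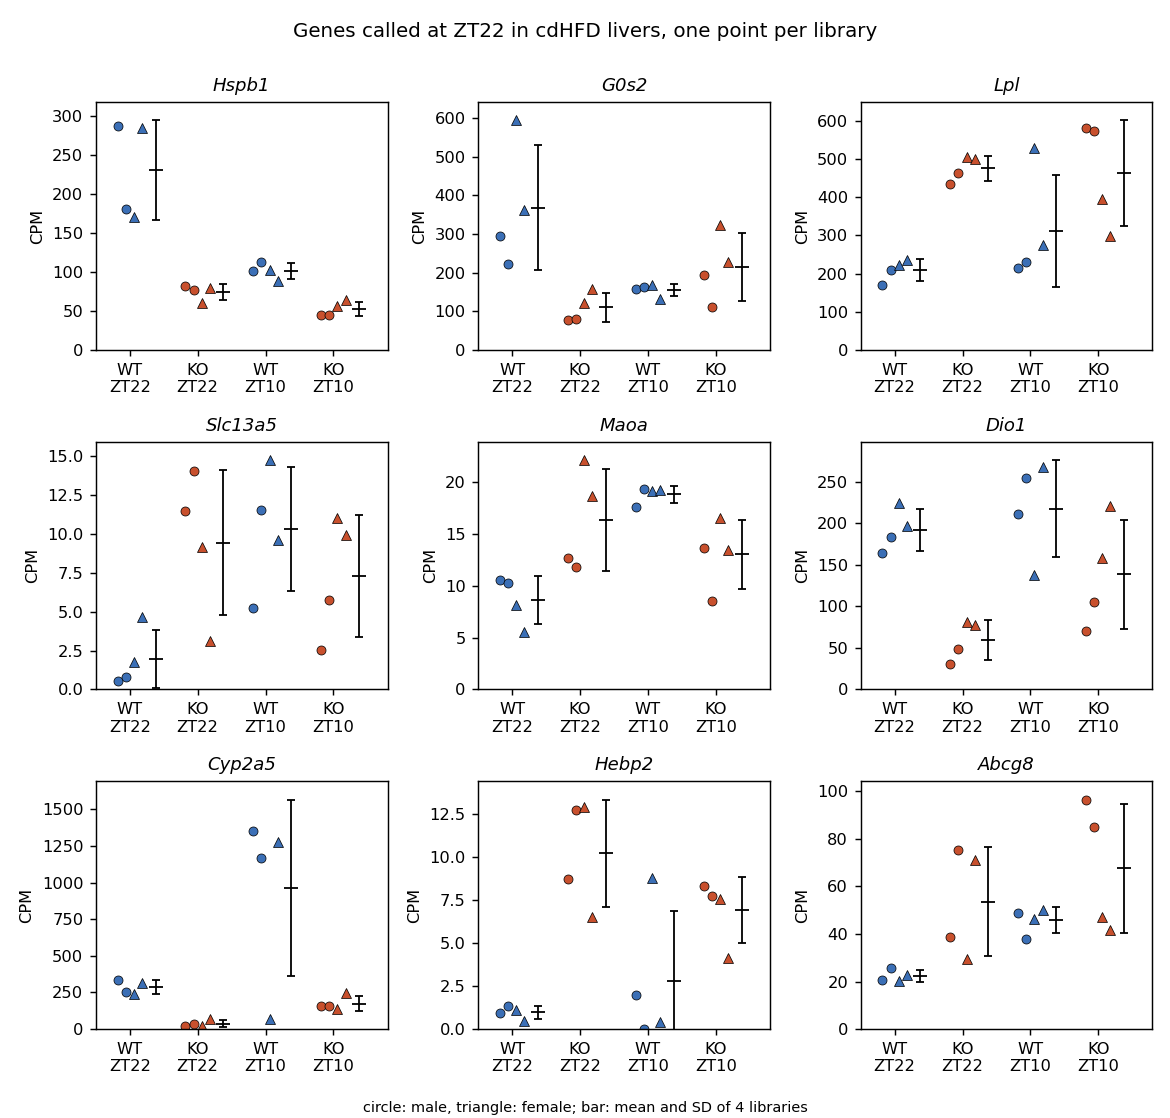
CPM of 9 genes called at ZT22 (vertical axes, linear from 0) in Hep-Bmal1WT (blue) and Hep-Bmal1KO (red) cdHFD livers at ZT22 and ZT10. Circles are males, triangles females and bars the mean and SD of 4 libraries, drawn no lower than 0. Slc13a5 overlaps between genotypes at ZT22, and Maoa is above the controls in all 4 Hep-Bmal1KO livers at ZT22 and below them in all 4 at ZT10.

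At ZT10 in the same fit, 0 genes were higher and 2 lower at an adjusted P under 0.05 (0.0129%), although 937 were higher (6.03%) and 839 lower (5.4%) at an unadjusted P under 0.05. The 2, which were named after their values were seen, were Cyp2f2, a lung and liver cytochrome P450 (-1.48, SE 0.28), and Slc46a3, a lysosomal transporter (-0.95, SE 0.18). Neither of these was among the 31. A count of 31 at ZT22 against 2 at ZT10 is not in itself a difference between the times, and the test of that difference, the genotype effect at ZT22 minus that at ZT10, called 0 genes by edgeR's quasi-likelihood test. The lowest adjusted P was 0.084, 818 genes had an unadjusted P under 0.05 (5.26%), and DESeq2 called 2 genes in each direction.

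The low count at ZT10 also rested on the libraries that stood apart. Without Hep-Bmal1WT replicate 3 there were 53 higher and 33 lower genes at ZT10 (0.553%), without Hep-Bmal1KO replicate 4 there were 139 and 154, and without both there were 253 and 254 (3.26%). On that last count 12 of the 31 genes called at ZT22 were also called at ZT10, in the same direction, and the difference between the times was called for 1 gene, lower. Without Hep-Bmal1KO replicate 3 the ZT10 counts were 12 and 2, and without any other ZT10 library both were 0.

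Read gene by gene, most of the 31 pointed the same way at ZT10. The sign was shared by 27, and 19 of these had an unadjusted P under 0.05 at ZT10, 7 of the higher and 12 of the lower genes. Of all genes, 50.6% had a log2 fold change above 0 at ZT10, and the share with the same sign at both times was not counted. Column and genotype cannot be told apart at either time, so a shared sign does not separate them. The medians at ZT10 were 0.52 for the higher and -0.45 for the lower genes, and the value was smaller in size than at ZT22 for 31 of 31, which the choice at ZT22 favours. Hspb1 measured 101, 113, 102 and 87.8 CPM in Hep-Bmal1WT and 45.3, 44.9, 55.98 and 63.5 CPM in Hep-Bmal1KO at ZT10, with no overlap (log2 fold change -0.94, SE 0.26, unadjusted P = 0.00066). Gbp3 (-0.83), Sfxn3 (0.89), Fez2 (-0.38), H2bc4 (-0.36), Fkbp4 (-0.45), AW112010 (-0.47) and Msantd3 (1.58) likewise had groups that did not overlap at ZT10, as did 4.58% of all genes (2.58% above and 2% below the controls). Lpl was at 214, 232, 528 and 275 CPM in Hep-Bmal1WT and 582, 573, 396 and 299.6 CPM in Hep-Bmal1KO. Its 528 CPM came from the Hep-Bmal1WT library that stood apart, and its log2 fold change at ZT10 was 0.57 (SE 0.25) with all 8 libraries and 1.11 without that library and Hep-Bmal1KO replicate 4. Cyp2a5 measured 1352, 1165, 69.6 and 1274 CPM against 158, 156, 135 and 247 CPM, the 69.6 CPM being from the same Hep-Bmal1WT library. Its values were -2.47 with all libraries and -3.08 without both. Hebp2 moved from 1.29 to 3.19, Ces1b from -0.52 to -1.002 and Dio1 from -0.65 to -1.13 in the same way.

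A smaller set had values at ZT10 that were near 0 or opposite in sign. The unadjusted P of the difference was under 0.05 for 12 of the 31, 8 of them above 0 (2.76% of all genes) and 4 below (2.5%), and none of these passed the adjusted test. The choice of the 31 at ZT22, which is one side of this difference, favours such a count. G0s2, lower at ZT22, measured 158, 162, 169 and 132 CPM in Hep-Bmal1WT and 194, 111, 323 and 228 CPM in Hep-Bmal1KO at ZT10, with overlapping groups. Its log2 fold change there was 0.46 (95% interval -0.17 to 1.09), and the difference between the times was -2.20 (SE 0.45, unadjusted P = 1.2e-05, adjusted P = 0.084). From ZT10 to ZT22 the level of G0s2 went up in Hep-Bmal1WT (1.25 on the log2 scale) and down in Hep-Bmal1KO (-0.95). Maoa had the opposite pattern, with 17.6, 19.3, 19.1 and 19.3 CPM in Hep-Bmal1WT and 13.6, 8.495, 16.5 and 13.5 CPM in Hep-Bmal1KO at ZT10. All 4 Hep-Bmal1KO livers were below the controls at ZT10 (-0.53, 95% interval -0.94 to -0.12) and above them at ZT22, a difference of 1.47 (SE 0.30, unadjusted P = 9e-06, adjusted P = 0.084). Slc13a5 was at 5.24, 11.6, 14.8 and 9.63 CPM against 2.52, 5.74, 11.02 and 9.94 CPM at ZT10, an overlap with a log2 fold change of -0.48 (95% interval -1.28 to 0.31) and a difference of 2.67 (SE 0.61, adjusted P = 0.22).

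Cdk6 had a narrow interval around 0 at ZT10 (-0.06, 95% interval -0.27 to 0.15), and its difference was 0.57 (SE 0.15, adjusted P = 0.64). Atr (0.10, SE 0.18), Ggt6 (-0.13, SE 0.20), Zfp938 (-0.12, SE 0.23) and Tinag (0.06, SE 0.52) also had ZT10 values near 0, with wider errors than Cdk6. Their differences were 0.76, -0.83, -0.92 and 2.21, with adjusted P values of 0.81, 0.81, 0.85 and 0.81. Without the 2 ZT10 libraries that stood apart, their ZT10 values were -0.08, -0.42, -0.17 and 0.69. Gas7 (0.39 at ZT10), Dio1 and Hebp2 were also among the 12, with the same sign at both times. Without the ZT10 libraries that stood apart, the unadjusted P of the difference was under 0.05 for 8 of the 31 (544 higher and 526 lower over all 15548 genes). G0s2 (-2.21), Maoa (1.48), Slc13a5 (2.62), Cdk6 (0.53), Atr (0.95) and Zfp938 (-0.87) were among those that remained, and Arntl (-1.19) was added, while Gas7, Tinag, Dio1, Hebp2 and Ggt6 were no longer among them. G0s2, Maoa, Slc13a5, Cdk6, Atr and Zfp938 thus had a log2 fold change at ZT10 that was near 0 or of opposite sign with all 8 libraries and without the 2 that stood apart.

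**Figure D3:**
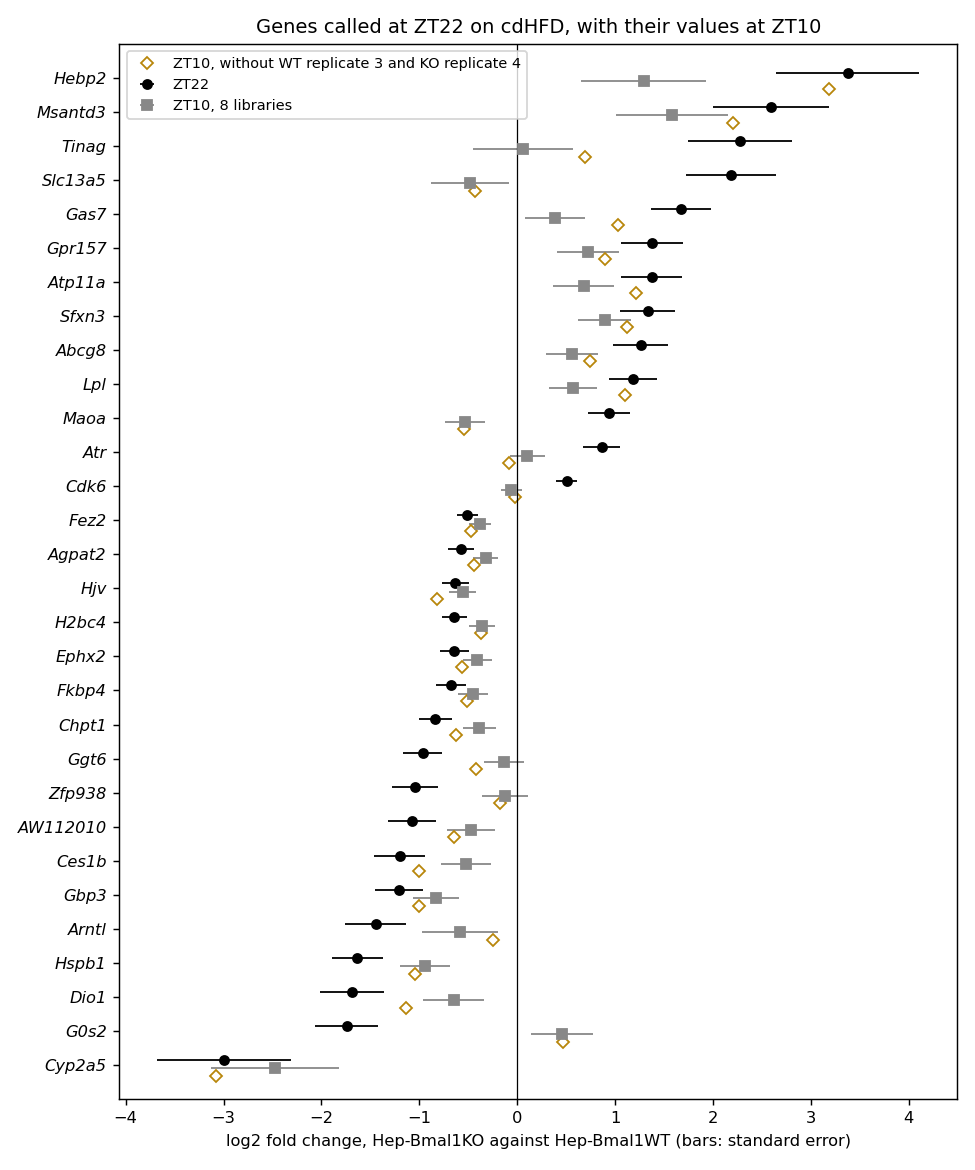
Log2 fold change of Hep-Bmal1KO against Hep-Bmal1WT on cdHFD (horizontal axis) for 30 of the 31 genes called at ZT22, at ZT22 (black circles), at ZT10 with all 8 libraries (grey squares) and at ZT10 without Hep-Bmal1WT replicate 3 and Hep-Bmal1KO replicate 4 (open diamonds). Bars are the standard error. Most ZT10 values lie on the ZT22 side of 0, while G0s2, Maoa, Slc13a5 and Cdk6 lie on the other side, joined by Atr (-0.08) without those libraries.

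Mice on chow gave a further look at ZT22, in livers that are not shared with the cdHFD groups. There, 34 genes were higher and 41 lower in Hep-Bmal1KO (0.482%), and 28 of the 31 cdHFD genes had the same sign, 12 of the higher and 16 of the lower. Of all genes, 50.4% had a log2 fold change above 0 on chow, and the share with the same sign on both diets was not counted. Only Lpl, Slc13a5 and Ces1b were called on both diets. Lpl measured 16.7, 22.4, 15.3 and 42.1 CPM in Hep-Bmal1WT and 300.1, 324, 282 and 315 CPM in Hep-Bmal1KO on chow (3.66, adjusted P = 0.019). No chow library of either genotype came near the other group. Slc13a5 had a log2 fold change of 2.62 (adjusted P = 0.043) and Ces1b of -1.86 (adjusted P = 0.048) on chow, and neither overlapped between genotypes. Dio1 (-1.80, adjusted P = 0.13) also had separate groups on chow, where the share of all genes without overlap was not counted. By contrast, Maoa was at -0.01, Fez2 at -0.03, Hjv at -0.05, Sfxn3 at -0.17 and Zfp938 at 0.10. The diets were fitted separately, and the difference between them was not tested. As on cdHFD, the chow libraries of each genotype sat in separate columns of the library plate. Column and genotype thus cannot be told apart on either diet, and a sign shared by both diets does not separate them.

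Gene lists for liver functions were then read by counts at an unadjusted P under 0.05, since few members passed the adjusted test. With all libraries, each count at ZT22 stands against 5.85% in either direction over all genes. The shares were 6.03% higher and 5.4% lower at ZT10, and 4.64% higher and 5.08% lower on chow. Unequal counts at ZT22 and ZT10 are not in themselves a difference between the times. With libraries left out the background was larger. Without Hep-Bmal1KO replicate 4 at ZT22 it was 977 higher and 1060 lower of 15548 genes there (13.1% in all). Without Hep-Bmal1KO replicate 4 at ZT10 it was 1132 higher and 1147 lower at ZT10 (14.7% in all). Without both ZT10 libraries that stood apart it was 1311 higher and 1250 lower at ZT10 (16.5% in all), with 3.26% past the adjusted test. The interferon-stimulated genes were mostly below the controls at ZT22. Of 19 tested, 13 were lower and 0 higher, with a median log2 fold change of -0.65 against 0.02 over all genes, and Gbp3 alone passed the adjusted test. Irf7, a transcription factor of the interferon response, measured 58.3, 68.8, 69.1 and 49.4 CPM in Hep-Bmal1WT and 27.8, 34.9, 41.8 and 47.5 CPM in Hep-Bmal1KO (-0.69, SE 0.20, adjusted P = 0.11). Igtp, an interferon-inducible GTPase (-0.93, SE 0.26), Bst2 (-0.54) and Ifit1 (-1.11) likewise had groups that did not overlap. At ZT10 the list was similar, with 12 lower and 0 higher and a median of -0.62, or 13 lower and a median of -0.92 without the libraries that stood apart, when 9 passed the adjusted test. Without Hep-Bmal1KO replicate 4 at ZT22, 12 were lower, 2 of them past the adjusted test. On chow the list had 1 higher and 0 lower.

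Acute phase genes, whose products the liver secretes in inflammation, counted 9 lower and 1 higher of 18 at ZT22 (median -0.23) and 0 in either direction at ZT10 (median -0.01). Orm1, an acid glycoprotein, had 882, 711, 801 and 661 CPM in Hep-Bmal1WT and 446, 327, 314 and 488 CPM in Hep-Bmal1KO at ZT22 (-0.96, SE 0.23, adjusted P = 0.059), and -0.16 (SE 0.23) at ZT10. Orm2 showed -1.10 (SE 0.30) and 0.08 (SE 0.30), and these 2 were the members whose difference between times had an unadjusted P under 0.05 (0.018 and 0.0076, adjusted P 0.90 and 0.85). That count was 4 without Hep-Bmal1KO replicate 4 at ZT22 and 1 without Hep-Bmal1WT replicate 3 at ZT10, so it depended on single libraries. The Orm genes are close copies, as are Saa1 and Saa2, so reads may be split among them. Without the ZT10 libraries that stood apart, 1 member was higher and 2 were lower at ZT10. The heat shock list had 9 lower of 13 at ZT22 (median -0.47) and 3 at ZT10 (median -0.27), led by Hsp90aa1 (-0.72, SE 0.18, adjusted P = 0.062), with 1 higher at ZT22, the cold-inducible Cirbp (1.12). For the difference between the times, 0 members of the heat shock list had an unadjusted P under 0.05 in either direction. Without Hep-Bmal1KO replicate 4 the ZT22 counts were 10 lower and 1 higher for the acute phase list, with 2 and 1 past the adjusted test, and 10 lower and 2 higher for the heat shock list. The ZT10 count of the heat shock list was 5 lower without Hep-Bmal1KO replicate 4 at ZT10, and 4 lower without both ZT10 libraries that stood apart.

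Enzymes of detoxification had members on both sides. Of 25 conjugation enzymes and carboxylesterases, 12 were lower and 4 higher at ZT22 (median -0.61). The lower ones included Ces1b, Ces1d (-1.94), Ces1f (-1.21), Ces3a (-1.01), Gsta3 (-0.89) and Gstt1 (-0.61), and the higher ones were Gstm1 (0.41), Gstm2 (1.03), Gstm3 (0.73) and Sult1e1. Gstm4 (0.35) and Gstm6 (0.38) did not pass the unadjusted threshold. Sult1e1, the estrogen sulfotransferase, measured 0.383, 0.193, 0.138 and 0.155 CPM in Hep-Bmal1WT and 4.67, 6.14, 3.38 and 4.25 CPM in Hep-Bmal1KO at ZT22, with no overlap (4.33, SE 1.04, adjusted P = 0.059). At ZT10 Sult1e1 was at 1.39, 1.58, 17.9 and 4.04 CPM against 6.37, 8.27, 4.46 and 1.94 CPM, where the 17.9 CPM belonged to the Hep-Bmal1WT library that stood apart. At ZT10, 8 members were lower and 0 higher (median -0.49), and 12 lower and 2 higher without both libraries. At ZT22 without Hep-Bmal1KO replicate 4 there were 13 lower and 2 higher. Among 26 cytochromes P450 and their receptors, 7 were lower and 2 higher at ZT22, against 10 and 0 at ZT10. Without both ZT10 libraries that stood apart, 14 were lower and 1 higher at ZT10, and 8 of the lower passed the adjusted test. Besides Cyp2a5, Cyp17a1, an enzyme of steroid synthesis, was at 12.1, 9.46, 10.8 and 21.7 CPM against 0.726, 0.658, 5.55 and 3.10 CPM at ZT22 (-2.37, SE 0.58, adjusted P = 0.062) and at -0.50 (SE 0.56) at ZT10. Cyp2c55 (1.96, SE 0.49) and Cyp2b10 (1.76) were the 2 higher ones.

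Lipid pathways showed smaller counts. Of 16 lipogenic genes and targets of CHREBP, 6 were lower and 1 higher at ZT22 (median -0.38), and 8 and 1 at ZT10 (median -0.49). Without both ZT10 libraries that stood apart, 10 were lower and 1 higher at ZT10 (median -0.62), and 4 of the lower passed the adjusted test. The smallest P at ZT22 belonged to the desaturase Fads1 (-0.66, SE 0.21, adjusted P = 0.19), and Thrsp (-1.86), Acacb (-1.35) and Mlxipl, which encodes CHREBP (-0.59), were lower at both times at an unadjusted P under 0.05. Scd1 was the member with a higher value (0.53). Without Hep-Bmal1KO replicate 4, 8 were lower and 0 higher at ZT22. Genes of fatty acid oxidation and targets of PPAR-alpha had 6 lower and 0 higher of 25 at ZT22 (median -0.28) and 0 lower and 2 higher at ZT10 (median 0.02), with Fabp1 in front at ZT22 (-0.65, SE 0.20, adjusted P = 0.15). The difference between the times had an unadjusted P under 0.05 for 2 of the 25, below 0 (2.5% of all genes), and for 0 above 0. None of the 25 passed the adjusted test of that difference. Without Hep-Bmal1KO replicate 4 at ZT10, 4 of the 25 were higher and 1 lower at ZT10. Without both libraries that stood apart there, the counts were also 4 and 1, with a median of -0.07. Of 22 genes of sterol synthesis, 1 was lower, Mvk (-0.75, SE 0.24), and 1 higher, Sqle (0.85), at ZT22, with a median of -0.13, while on chow at ZT22 the list had 15 higher, 0 lower and a median of 0.87. Triglyceride synthesis and secretion had 3 lower and 1 higher of 12, and bile acids and sterol export 2 and 2 of 16, the higher being Abcg5 and Abcg8. At ZT10 the bile acid list had 6 lower and 3 higher (median -0.34). Without both libraries it had 8 and 4, of which 4 and 1 passed the adjusted test. The triglyceride list had 2 and 1 at ZT10, or 4 and 0 without both libraries.

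**Figure D4:**
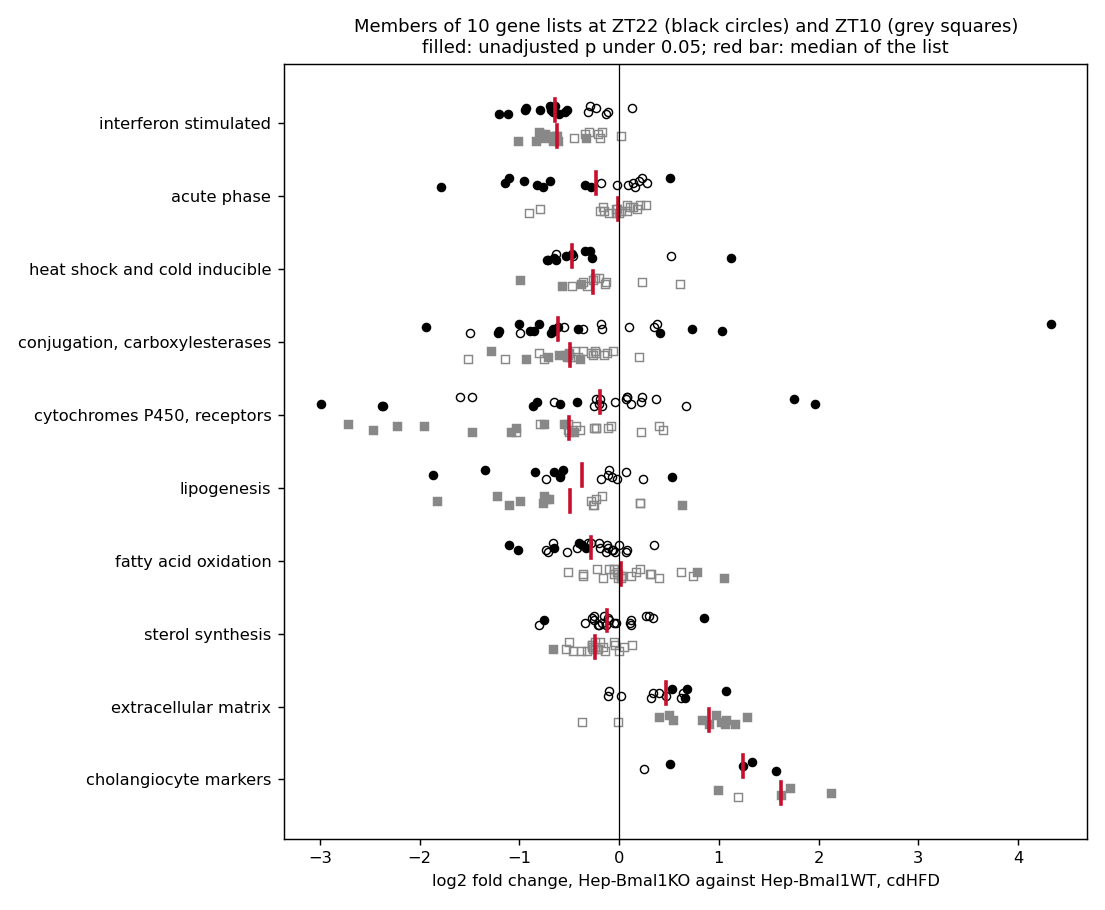
Log2 fold change of Hep-Bmal1KO against Hep-Bmal1WT on cdHFD (horizontal axis) for the members of 10 gene lists, at ZT22 (black circles, upper of each pair of rows) and ZT10 (grey squares, lower). Filled symbols have an unadjusted P under 0.05 and red bars are the list medians. The interferon list lies below 0 at both times, with medians of -0.65 and -0.62, while the acute phase medians are -0.23 and -0.01.

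The remaining lists held few members past the unadjusted threshold at ZT22 with all libraries. These were methionine and choline metabolism (3 lower of 12, led by Ahcy at -0.52), amino acid catabolism and the urea cycle (2 lower of 19, led by Tdo2 at -0.57), the unfolded protein response (1 lower of 14, Hsp90b1 at -0.32) and glucose and glycogen (2 lower and 1 higher of 14, led by Ppp1r3c at -0.96). NRF2 targets had 2 higher of 9, led by Slc7a11 at 1.81, glucocorticoid-responsive genes 2 higher and 1 lower of 9, led by Sgk1 at 0.74, cell cycle genes 1 higher and 2 lower of 18, led by Cdk1 at -0.97, and ribosome biogenesis 1 higher of 17, Ncl at 0.55. With Hep-Bmal1KO replicate 4 left out at ZT22, the lower members numbered 5 in the cell cycle list, 1 of them past the adjusted test, 4 in the glucose list and 3 in the unfolded protein list. The cell cycle median went from 0.11 to -0.02 and its higher members from 1 to 2. Extracellular matrix genes had 4 higher and 0 lower of 13 (median 0.47, led by Col4a2 at 0.53) at ZT22, and 11 higher at ZT10 (median 0.91). Without both ZT10 libraries that stood apart, 10 were higher at ZT10 (median 1.15), 5 of them past the adjusted test. The difference between the times had an unadjusted P under 0.05 for 0 of the 13 matrix genes, with all libraries and without those 2. Macrophage, neutrophil and stellate cell markers also had more higher members at ZT10 than at ZT22, and their part in the matrix counts was not tested.

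Markers of other liver cells also moved with the genotype, and their part in the results above was not tested. Of 5 cholangiocyte markers, 4 were higher at ZT22 (median 1.24), and their summed level ran from 89.6 to 189 CPM in Hep-Bmal1WT and from 244 to 530 CPM in Hep-Bmal1KO. Spp1, which injured hepatocytes and macrophages also express, made up most of it (102, 67.6, 135 and 95.8 CPM against 404, 217, 183 and 204 CPM), and Epcam was at 10.7, 3.28, 9.67 and 11.3 CPM against 35.3, 15.8, 19.9 and 11.8 CPM. Macrophage markers had 3 higher, among them Gpnmb (1.16, adjusted P = 0.069), and 1 lower of 17, with sums of 3380 to 3816 CPM in Hep-Bmal1WT and 3339 to 4632 CPM in Hep-Bmal1KO. The 8 hepatocyte markers summed to 97238 to 102748 CPM in Hep-Bmal1WT and 68770 to 91285 CPM in Hep-Bmal1KO, with 1 lower, 0 higher and a median log2 fold change of 0.01. The sums of stellate, endothelial, lymphocyte, neutrophil and erythroid markers overlapped between the genotypes, with 0 members past the unadjusted threshold, and no marker of any list was at 0 in all libraries of a group. At ZT22, 4 macrophage markers (1 of them past the adjusted test) and 1 neutrophil marker were higher when Hep-Bmal1KO replicate 4 was left out.

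At ZT10, more of these markers were higher at an unadjusted P under 0.05. Macrophage markers had 10 higher and 0 lower of 17 (median 0.51), with sums of 1871 to 3181 CPM in Hep-Bmal1WT and 2677 to 4598 CPM in Hep-Bmal1KO. Cholangiocyte markers had 4 higher of 5 (median 1.63), and their sums of 108 to 259 CPM and 296 to 899 CPM did not overlap. Neutrophil markers had 3 higher of 4 (median 1.02, sums of 63.9 to 130.01 CPM and 94.2 to 237 CPM) and stellate cell markers 3 of 8 (median 0.35, sums of 620 to 951 CPM and 756 to 1049 CPM). Without both ZT10 libraries that stood apart, the higher markers at ZT10 were 12 for macrophages, 5 for cholangiocytes, 4 for neutrophils and 4 for stellate cells. Over all 15548 genes, 1311 were then higher. The difference between the times had an unadjusted P under 0.05 for 0 markers of these 4 lists with all libraries. Without those 2 it did for 7 macrophage, 3 neutrophil, 2 cholangiocyte and 0 stellate cell markers, all with the lower log2 fold change at ZT22. Over all genes, 389 had such a lower value with all libraries (2.5%) and 526 without those 2. The part of these cells in the ZT10 results was not tested.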

How the data were processed

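Total RNA from 96 livers was profiled by BRB-seq, and the deposited table holds raw counts per gene, made by the authors with STAR alignment to mm10 and counting by HTSeq or featureCounts, both of which the submitters' notes name. Whether counting used strand is not given in the sources used here, so antisense and overlapping genes are not separated with certainty. Gene positions are those of GRCm38.p6. From the counts, genes with a sum of at least 100 over the 96 libraries were kept (15548 of 55487), and edgeR 4.0.16 in R 4.3.3 was run with TMM scaling and its quasi-likelihood test on the 48 cdHFD libraries with 1 mean for each of 12 genotype-by-time groups, and separately on the 48 chow libraries. P values were adjusted by Benjamini-Hochberg over all genes tested, and a gene was called at an adjusted P under 0.05. Differences are log2 fold changes, Hep-Bmal1KO over Hep-Bmal1WT. CPM are counts scaled to a common library total after TMM, and since no length enters them they are not compared between genes. Each library is a separate mouse, and no pair of libraries of a group differed by less than sampling noise.

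The members and the gene lists were chosen with earlier results of these data known. Named genes were the 18 clock genes, called genes with at least a 2-fold change and no overlap (up to 12 a direction), the 6 called genes with the smallest P of the ZT22 minus ZT10 difference in each direction, and the called or smallest-P member of each list. The other called genes, and other list members given as examples, were named after their values were seen. The scripts were tested on simulated data. Alternatives were the libraries fitted, sex as a covariate, each sex alone, DESeq2 1.42.0, its size factors, other filters, an adjusted P under 0.1, leaving out each library in turn, and leaving out the libraries that stood apart, of which the fits without all 4 cdHFD libraries against their label and without both ZT10 libraries were chosen after seeing the data. Promoter sequences were not used here. Some genes, 1 of them among the 31 called at ZT22, are not reported here by name.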

Additional observations from a re-analysis of the deposited data

Results flagged for a closer look

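In 16 of 200 groups of 4 libraries examined (50 genes), 1 library lay far from the other 3 (Dixon's test at 95%), where chance flags about 1 in 20 groups. Of these, 7 came from Hep-Bmal1WT replicate 3 at ZT10, the library that stood on the other side of its label, with 8.07 CPM of Arntl, 18.9 of Npas2, 16.3 of Nfil3, 6.87 of Gas7, 55.1 of Fez2, 69.6 of Cyp2a5 and 3.78 of Tinag. Elsewhere at ZT10, a library lay apart for Per2 (10.4 CPM, Hep-Bmal1KO replicate 1), Per3 (14.9, Hep-Bmal1KO replicate 4), Cry2 (9.05, Hep-Bmal1WT replicate 4), and H2bc4 and Maoa (313 and 17.6, Hep-Bmal1WT replicate 1). At ZT22 this held for Ciart and Nfil3 in Hep-Bmal1KO replicate 2 (1.75 and 21.7 CPM), Bhlhe41 in Hep-Bmal1WT replicate 3 (1.38 CPM) and Ggt6 in Hep-Bmal1WT replicate 2 (24.7 CPM), and 0 were from Hep-Bmal1KO replicate 4.

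Maoa stood out because its 4 Hep-Bmal1KO livers were all above the controls at ZT22 and all below them at ZT10, with a log2 difference of 1.47 between the genotype effects (adjusted P = 0.084). It was 1 gene of the 50 with that pattern, which was not counted over all genes. The 50 were the clock genes and the genes called at ZT22 or ZT10, and a choice by P favours groups that do not overlap. Its increase at ZT22 was small in males, and 7 of 19 alternatives passed the adjusted test at ZT22.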

How the results depend on the processing

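The counts of called genes depended on the processing more than the directions did. Counts are given as higher and lower, for ZT22 (14 and 17), ZT10 (0 and 2) and the ZT22 minus ZT10 difference (0 and 0). They were 42 and 46, 16 and 4, and 1 and 2 at an adjusted P under 0.1, and 76 and 106, 0 and 0, and 0 and 0 with only the libraries compared. With the spread of all 96 libraries they were 1 and 1, 0 and 1, and 1 and 0. Sex as a covariate gave 41 and 60, 17 and 16, and 0 and 0, males alone 42 and 70, 282 and 374, and 16 and 5, and females alone 5 and 9, 0 and 0, and 2 and 1. Without a filter beyond 1 count they were 161 and 199, 198 and 163, and 17 and 14, and by DESeq2 51 and 88, 47 and 25, and 2 and 2. Without the library against its label they were 33 and 62 at ZT22 and 53 and 33 at ZT10, and without all 4 cdHFD libraries against their label 68 and 108, 107 and 75, and 0 and 0. Without Hep-Bmal1WT replicate 3 and Hep-Bmal1KO replicate 4 at ZT10 they were 253 and 254 at ZT10 and 0 and 1 for the difference. DESeq2 size factors gave 14 and 17 at ZT22. Leaving out each replicate in turn gave 0 to 33 and 1 to 62 at ZT22, 0 to 139 and 0 to 154 at ZT10, and 0 to 1 in both directions for the difference. On chow at ZT22 (34 and 41) DESeq2 gave 88 and 91, sex as a covariate 104 and 126, and leaving out each replicate 9 to 28 and 7 to 25. The causes were not tested. For the 31 called genes, 325 of 588 alternative values passed the adjusted test and 588 kept their direction. No paired analysis was possible because the replicate numbers follow the order of the samples and pair no mice. Depth limits genes of a few counts, such as Hebp2, Slc13a5 or Sult1e1 in the controls.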
